A study of Mus musculus with 8 samples.

Results

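The 10 genes described here encode the core enzymes of the pentose phosphate pathway and the entry enzymes of the hexosamine pathway in neonatal cardiomyocytes (NCMs). They were chosen by symbol, and all 10 were found among the 27179 genes of the count table and among the 14966 genes that passed the filter on low counts. RNA was sequenced from NCMs of male C57Bl/6J offspring collected on postnatal day 0, and each library was made from 1 heart. The dams of the filtered air (FA) group breathed FA throughout, and those of the diesel exhaust (DE) group breathed DE from embryonic day 0.5 until late gestation. There were 4 FA libraries (replicates 2, 3, 4 and 6) and 4 DE libraries (replicates 1, 3, 5 and 7). The sample names begin with the number 12 for DE replicates 3 and 5 and with 11 for the other 6 libraries, and what the number means is not stated. Litters are not named, so pups of 1 dam cannot be recognised. NCMs were enriched from ventricles by letting fibroblasts attach to a plate, which does not remove every other cell type.

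Both pathways branch from glucose 6-phosphate or fructose 6-phosphate at the top of glycolysis. The oxidative arm of the pentose phosphate pathway makes NADPH, which serves reductive synthesis and the glutathione system. The non-oxidative arm interconverts sugar phosphates, and links ribose 5-phosphate, the precursor of nucleotides, to glycolysis in both directions. The hexosamine pathway makes UDP-N-acetylglucosamine, the donor for glycosylation and for O-GlcNAc on intracellular proteins, and its first and limiting step is made by the 2 glutamine-fructose-6-phosphate transaminases Gfpt1 and Gfpt2.

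Totals per library ran from 17943024 to 39839737 counts. Cardiomyocyte markers dominated each library, and the summed level of 8 of them was between 60430 and 63618 CPM (counts scaled to library size, with TMM factors) in FA and between 50929 and 59178 CPM in DE, with a log2 fold change below 0 for 7 of the 8, Myh6 and Pln called lower and Myh7 called higher. Markers of other cells were also present. The summed level of 9 fibroblast markers was 2022 to 3487 CPM in FA and 3674 to 6212 CPM in DE. All 9 had a log2 fold change above 0, with 2 called. Over all tested genes, 50.5% had a log2 fold change above 0 and 5.80% were called. For endothelial markers (8 genes) the sums were 968 to 1283 CPM in FA and 1048 to 1559 CPM in DE. For smooth muscle and pericyte markers (7 genes) they were 1142 to 1784 and 810 to 1228 CPM, for erythroid markers (6 genes) 759 to 1880 and 1209 to 2022 CPM, for mesothelial markers (5 genes) 92.0 to 118 and 85.7 to 123 CPM, and for leukocyte markers (7 genes) 12.5 to 18.5 and 15.6 to 26.3 CPM. Of the markers in these last 5 lists, 1 erythroid (Slc4a1) and 1 leukocyte gene (Itgam) were called higher in DE, against 3.58% of all tested genes. The log2 fold change was above 0 for 7 of 8 endothelial, 5 of 7 smooth muscle and pericyte and 6 of 6 erythroid markers. It was above 0 for 3 of 5 mesothelial and 5 of 6 tested leukocyte markers. None of these markers was at 0 in all libraries.

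The 250 bases before the start of Tkt, the one gene of the 10 that was called, are shown beside those of Taldo1, its partner in the non-oxidative arm, and of G6pdx, the gene of the first oxidative step. They are from RefSeq on GRCm38.p6, the assembly also called mm10, and are written 5′ to 3′ on the strand of the gene. Capitals mark the core GCGTG of the xenobiotic response element, bound by the aryl hydrocarbon receptor, and the core TGACNNNGC of the antioxidant response element, bound by Nrf2, each on either strand. The Tkt window is chr14:30548881-30549130 (plus strand), that of Taldo1 is chr7:141391910-141392159 (plus strand), and that of G6pdx is chrX:74428881-74429130 (minus strand).
Tkt: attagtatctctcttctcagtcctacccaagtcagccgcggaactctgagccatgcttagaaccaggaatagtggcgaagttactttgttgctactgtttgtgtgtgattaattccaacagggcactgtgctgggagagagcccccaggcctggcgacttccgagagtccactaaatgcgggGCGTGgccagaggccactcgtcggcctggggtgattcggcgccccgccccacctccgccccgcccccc
Taldo1: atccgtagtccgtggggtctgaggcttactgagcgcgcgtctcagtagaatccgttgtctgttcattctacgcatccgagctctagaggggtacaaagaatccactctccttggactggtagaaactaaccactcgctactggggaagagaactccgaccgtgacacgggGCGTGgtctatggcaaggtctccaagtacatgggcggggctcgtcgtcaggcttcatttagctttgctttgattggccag
G6pdx: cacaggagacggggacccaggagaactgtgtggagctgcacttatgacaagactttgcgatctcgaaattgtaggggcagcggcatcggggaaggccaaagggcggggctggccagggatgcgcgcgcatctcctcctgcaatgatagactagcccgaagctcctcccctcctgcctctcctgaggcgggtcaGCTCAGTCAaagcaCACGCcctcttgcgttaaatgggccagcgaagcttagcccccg

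The core GCGTG was found before 7 of the 10 genes, Tkt among them, and before 28.2% of the 32851 promoters of the same length in RefSeq. The core TGACNNNGC was found before G6pdx alone, 57 bases upstream of its start, and before 10.2% of all promoters. The GC box GGGCGG was found before 9 of the 10 genes, with 3 copies before Tkt that lie within 25 bases of the start and of which the last 2 overlap by 1 base, against 32.7% of all promoters. The CCAAT box CCAAT was found before 5 of the 10, against 33.8%. The E-box CACGTG (6.02% of all promoters) and the E2F sites TTTCCCGC (0.895%) and TTTGGCGC (0.417%) were found before none of the 10. For H6pd the window lies inside the annotated span of the gene, and for Pgd 2 starts were searched. All motifs were searched on both strands, and a match is only a match of letters. The GC content of the windows ran from 38.8% (H6pd) to 72.0% (Gfpt1) and was 59.6% for Tkt. The shares over all promoters were not matched for GC content, on which matches to GCGTG and GGGCGG depend. They also count each start alone, whereas Pgd could match at either of 2. The window with a GCGTG core was thus shared by Tkt and by genes that were not called.

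Of the 10 genes, only Tkt was called between DE and FA, and it was higher in DE. Calls required a difference of at least 25% and an adjusted p no higher than 0.05 in the quasi-likelihood test of edgeR. Over all tested genes, 868 (5.80%) were called, with 536 (3.58%) higher and 332 (2.22%) lower in DE, so the count of 1 in 10 says nothing about the pathways as groups. With library totals alone as the scaling, 803 genes were called higher and 217 lower. FA and DE libraries were fully separated in CPM for 1 of the 10, again Tkt, against 14.7% of all tested genes. At an unadjusted p under 0.05 the count was also 1 of 10, against 25.6% of all tested genes. The median log2 fold change of the 10 was 0.17, and that of all tested genes was 0.0037. With each library left out, the median of the 10 ran from 0.10 (without FA replicate 2) to 0.24 (without FA replicate 6). A log2 fold change above 0 was found for 8 of the 10 and for 50.5% of all tested genes. That count was 6 with offsets for the length and GC content of transcripts, and 6 without FA replicate 4 or DE replicate 7. It was 7 without FA replicate 3, FA replicate 6, DE replicate 1 or DE replicate 3. The median of the 10 was 0.05 with those offsets, and 0.04 in the libraries with the number 11.

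**Figure D1:**
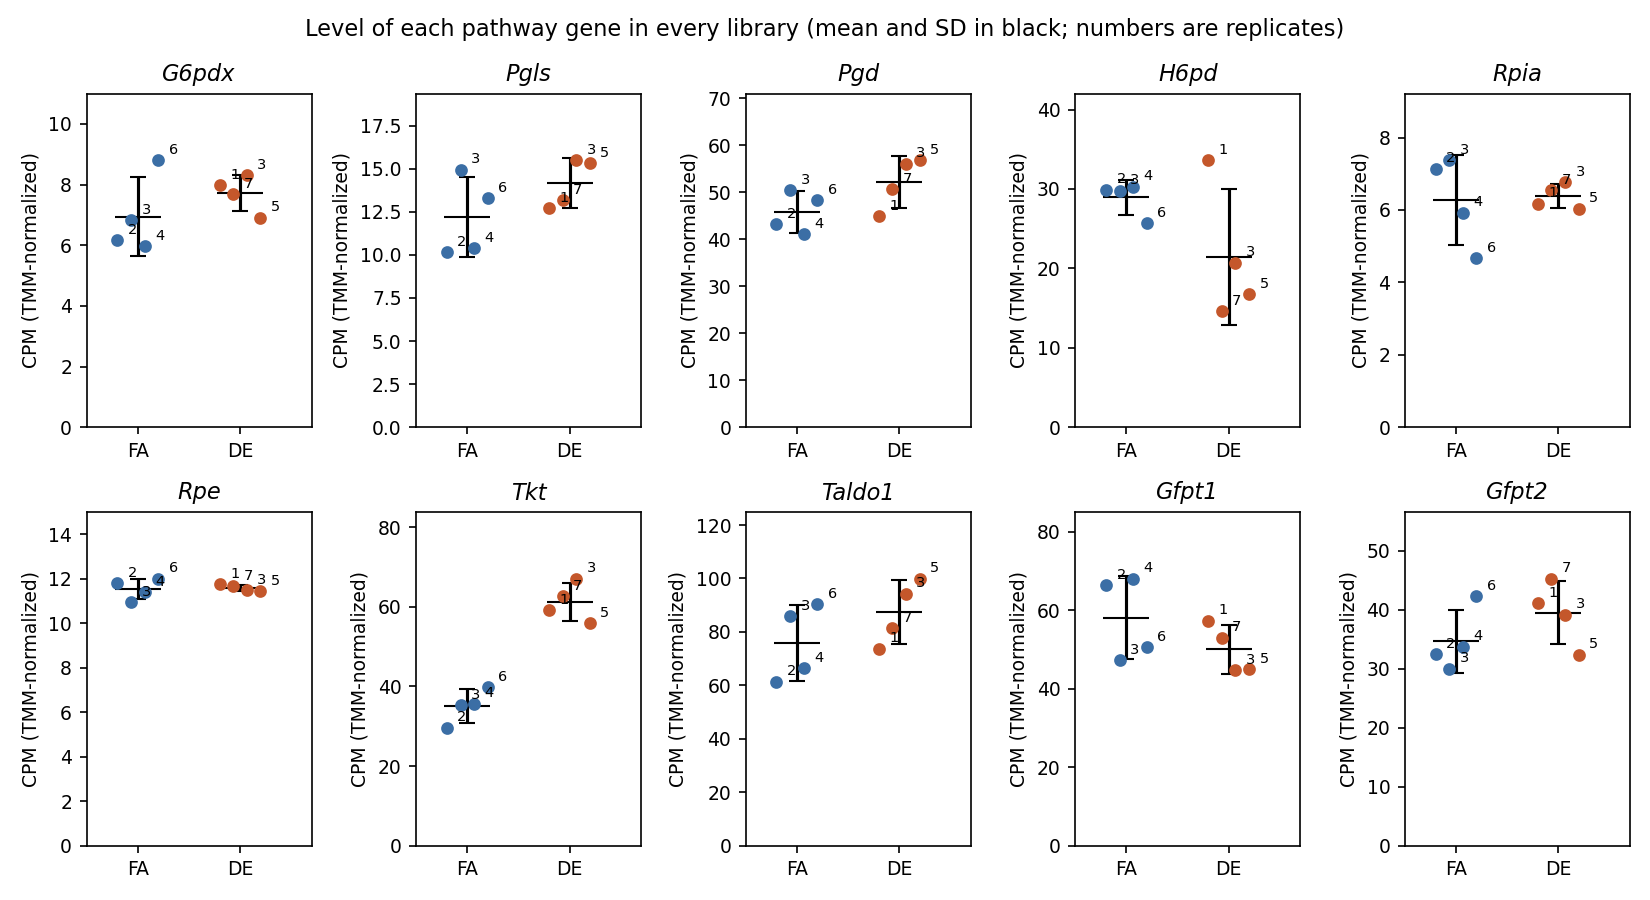
TMM-normalized CPM of each of the 10 genes (vertical axes from 0) in the 4 FA libraries (blue) and 4 DE libraries (orange), with replicate numbers beside the points and the mean and SD of each group in black. The Tkt values of the groups are apart, 3 of 4 DE libraries are below every FA library for H6pd, and the values of the other 8 genes overlap.

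Tkt (Entrez gene 21881, on GRCm38.p6 chromosome 14, bases 30549131 to 30574724) encodes transketolase, the thiamine-dependent enzyme that moves carbon units between sugar phosphates in the non-oxidative arm. Its level was 29.7, 35.3, 35.7 and 39.8 CPM in FA replicates 2, 3, 4 and 6, and 59.2, 67.1, 55.9 and 62.7 CPM in DE replicates 1, 3, 5 and 7. Every DE library was above every FA library, and the lowest DE value exceeded the highest FA value by more than the SD of either group. The mean rose from 35.1 ± 4.18 to 61.2 ± 4.80 CPM (SD, 4 libraries each), a 1.75-fold difference. On the log2 scale this was 0.80 with a standard error of 0.11 and a 95% interval from 0.56 to 1.04, and the Benjamini-Hochberg adjusted p over all tested genes was 0.0030 in edgeR. In bulk RNA a change in the share of cells that express a gene and a change in the RNA per cell cannot be told apart. The summed fibroblast markers, higher in DE, and the summed cardiomyocyte markers, lower in DE, also did not overlap between the groups, and their part in the Tkt difference was not tested.

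The Tkt difference was as large within the libraries that carry the number 11, at 0.79 on the log2 scale (adjusted p = 0.015 from edgeR), with DE replicates 1 and 7 at 59.2 and 62.7 CPM and replicates 3 and 5, which carry the number 12, at 67.1 and 55.9 CPM. Over 19 alternatives of test, scaling, filter and libraries, the log2 fold change of Tkt was between 0.73 and 0.88 and the gene was called in each. The highest adjusted p, 0.0236, came from the edgeR test that has the 25% difference built in. The counts behind Tkt ran from 632 to 2338 per library. No stretch of 50 bases of its longest transcript occurred in a transcript of another gene. The transketolase-like genes Tktl1 and Tktl2 were low, with Tktl1 at 0.941 ± 0.509 CPM in FA against 0.894 ± 0.364 CPM in DE (SD, 4 libraries each) and Tktl2 at 0 counts in every library.

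**Figure D2:**
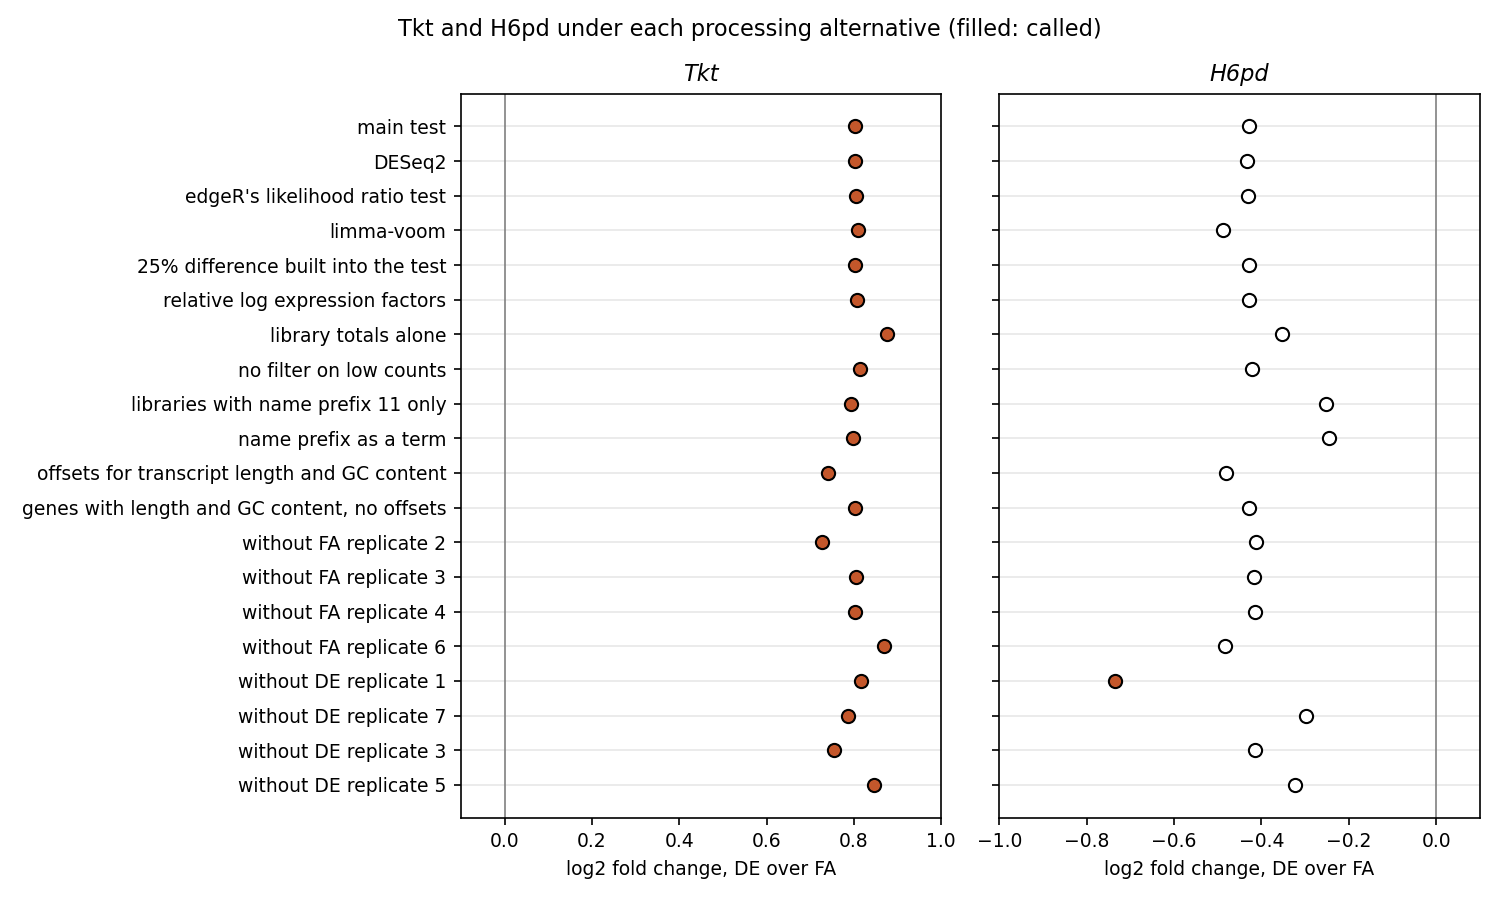
log2 fold change of Tkt (left) and H6pd (right), DE over FA, in the main test and 19 processing alternatives. Filled points are called. Tkt lies between 0.73 and 0.88 and is filled throughout, while H6pd is filled only without DE replicate 1, at -0.73.

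Taldo1 (Entrez gene 21351, chromosome 7 from 141392160 to 141402976) encodes transaldolase, which works with transketolase in the same arm. It was at 61.4, 85.8, 66.4 and 90.4 CPM in FA replicates 2, 3, 4 and 6 and at 73.7, 94.3, 99.9 and 81.4 CPM in DE replicates 1, 3, 5 and 7. The groups overlapped, and the spread within FA was wider than the difference of the means, with a log2 fold change of 0.20 (95% interval -0.12 to 0.52, adjusted p = 0.404 from edgeR). In the libraries with the number 11 it was 0.02. In FA the values fell into a low pair, replicates 2 and 4, and a high pair, replicates 3 and 6. Reads of Taldo1 carry an uncertainty, since 10.9% of the 50-base stretches of its transcript occur also in Gm17823. Per kilobase of exon, Tkt stood at 0.204, 0.174, 0.227 and 0.187 of the Taldo1 level in FA replicates 2, 3, 4 and 6, and at 0.340, 0.301, 0.237 and 0.326 of it in DE replicates 1, 3, 5 and 7. The ratio was higher in all 4 DE libraries than in any FA library, with DE replicate 5 closest to FA.

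The isomerase and the epimerase, which connect ribulose 5-phosphate to the non-oxidative arm, were close to level. Rpia (ribose 5-phosphate isomerase, Entrez gene 19895, chromosome 6 from 70765720 to 70792175) was at 7.14, 7.37, 5.93 and 4.67 CPM in FA replicates 2, 3, 4 and 6 and between 6.04 and 6.77 CPM in DE, so that all 4 DE values lay inside the FA range. Its log2 fold change was 0.02, with a 95% interval from -0.32 to 0.36, and 0.01 in the libraries with the number 11. Rpe (ribulose 5-phosphate epimerase, Entrez gene 66646, chromosome 1 from 66700797 to 66719805) had the smallest spread of the 10, with a coefficient of variation of 3.97% in FA and 1.19% in DE. On its 202 to 459 counts per library, counting noise alone would give wider spreads, so these are not read as a trait of Rpe. Its mean was 11.5 ± 0.458 CPM for FA against 11.6 ± 0.138 CPM for DE (SD, 4 libraries each), and its 95% interval ran from -0.21 to 0.22 on the log2 scale, with a difference of 0.02 in the libraries with the number 11. Of the exon bases of Rpe, 16.3% overlap exons of Kansl1l on the opposite strand, and the strand setting of the counting is not stated. The adjusted p-values of Rpia and Rpe from edgeR were 0.957 and 0.978.

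In the oxidative arm none of the 3 cytosolic enzymes was called. G6pdx (glucose 6-phosphate dehydrogenase, the committed and NADPH-forming step, Entrez gene 14381, chromosome X from 74409483 to 74428880) was at 6.18, 6.83, 5.98 and 8.80 CPM in FA replicates 2, 3, 4 and 6 and at 7.99, 8.32, 6.91 and 7.68 CPM in DE replicates 1, 3, 5 and 7. The other 3 FA libraries were below every DE library, but FA replicate 6 was the highest of all 8. The log2 fold change was 0.15 (95% interval -0.17 to 0.48, adjusted p = 0.536 from edgeR) on 106 to 290 counts per library. Its retrogene G6pd2 had 0 counts in every library, although 10.7% of the 50-base stretches of the G6pdx transcript occur in transcripts of other genes, most of them in G6pd2.
Pgls (6-phosphogluconolactonase, Entrez gene 66171, chromosome 8 from 71592184 to 71596267), the second enzyme, was at 10.2, 14.9, 10.4 and 13.3 CPM in FA replicates 2, 3, 4 and 6 and at 12.7, 15.5, 15.3 and 13.2 CPM in DE replicates 1, 3, 5 and 7. FA replicates 2 and 4 were the lowest libraries, as for Taldo1, and the groups overlapped. Pgd (6-phosphogluconate dehydrogenase, the other NADPH-forming step, Entrez gene 110208, chromosome 4 from 149149991 to 149166705) was at 43.2, 50.5, 41.0 and 48.3 CPM in FA and at 44.8, 56.1, 56.8 and 50.7 CPM in DE, in the same order of replicates. The log2 fold changes of Pgls and Pgd were 0.22 (95% interval -0.10 to 0.54) and 0.19 (95% interval -0.05 to 0.43), with adjusted p-values of 0.357 and 0.303 from edgeR. In the libraries with the number 11 the log2 fold changes were 0.17 for G6pdx, 0.08 for Pgls and 0.06 for Pgd.

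H6pd (Entrez gene 100198, chromosome 4 from 149979474 to 150009023) encodes the bifunctional hexose 6-phosphate dehydrogenase of the endoplasmic reticulum, which carries out the first 2 oxidative steps there and supplies NADPH inside that compartment. Its level was 29.9, 29.8, 30.3 and 25.7 CPM in FA replicates 2, 3, 4 and 6 and 33.6, 20.7, 16.7 and 14.7 CPM in DE replicates 1, 3, 5 and 7. In DE, 3 libraries were below every FA library, whereas DE replicate 1 was above all of them. The coefficient of variation was 7.45% in FA and 39.7% in DE, the latter the widest of any of the 10 genes in either group. H6pd was not called, with a log2 fold change of -0.43 (95% interval -0.90 to 0.05, adjusted p = 0.236 from edgeR). Without DE replicate 1 the log2 fold change was -0.73 and the gene was called (adjusted p = 0.0141 from edgeR), the one alternative of 19 that did so. It was -0.25 both in the libraries with the number 11 and with that number as a term, with adjusted p-values of 0.68 and 0.66 from edgeR. DE replicate 1 also had the highest summed fibroblast markers, 6212 CPM, and the part of other cells in its H6pd level was not tested. DE replicates 1 and 7, which share the number 11, were the highest and the lowest DE library. Relative to G6pdx per kilobase, H6pd was at 2.65, 2.39, 2.77 and 1.60 in FA replicates 2, 3, 4 and 6 and at 2.30, 1.36, 1.33 and 1.05 in DE replicates 1, 3, 5 and 7.

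The 2 entry enzymes of the hexosamine pathway had log2 fold changes of opposite sign and neither was called. Gfpt1 (Entrez gene 14583, chromosome 6 from 87042846 to 87092207) was at 66.4, 47.4, 68.1 and 50.7 CPM in FA replicates 2, 3, 4 and 6 and at 57.4, 44.7, 45.0 and 53.0 CPM in DE replicates 1, 3, 5 and 7. The FA values again formed a pair from replicates 2 and 4 and a pair from replicates 3 and 6, here with replicates 2 and 4 high. Gfpt2 (Entrez gene 14584, chromosome 11 from 49794155 to 49838620) was at 32.5, 30.0, 33.7 and 42.3 CPM in FA and at 41.2, 39.2, 32.4 and 45.3 CPM in DE, in the same order of replicates. The log2 fold changes were -0.22 (95% interval -0.52 to 0.09) for Gfpt1 and 0.19 (95% interval -0.11 to 0.48) for Gfpt2, with adjusted p-values of 0.351 and 0.401 from edgeR. In the libraries with the number 11 they were -0.08 and 0.31. Per kilobase of exon, the ratio of Gfpt2 to Gfpt1 was 1.47 ± 0.387 in FA and 1.89 ± 0.204 in DE (SD, 4 libraries each), and FA replicate 6, at 2.00, lay within the DE values. No 50-base stretch of either transcript occurred in the other.

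**Figure D3:**
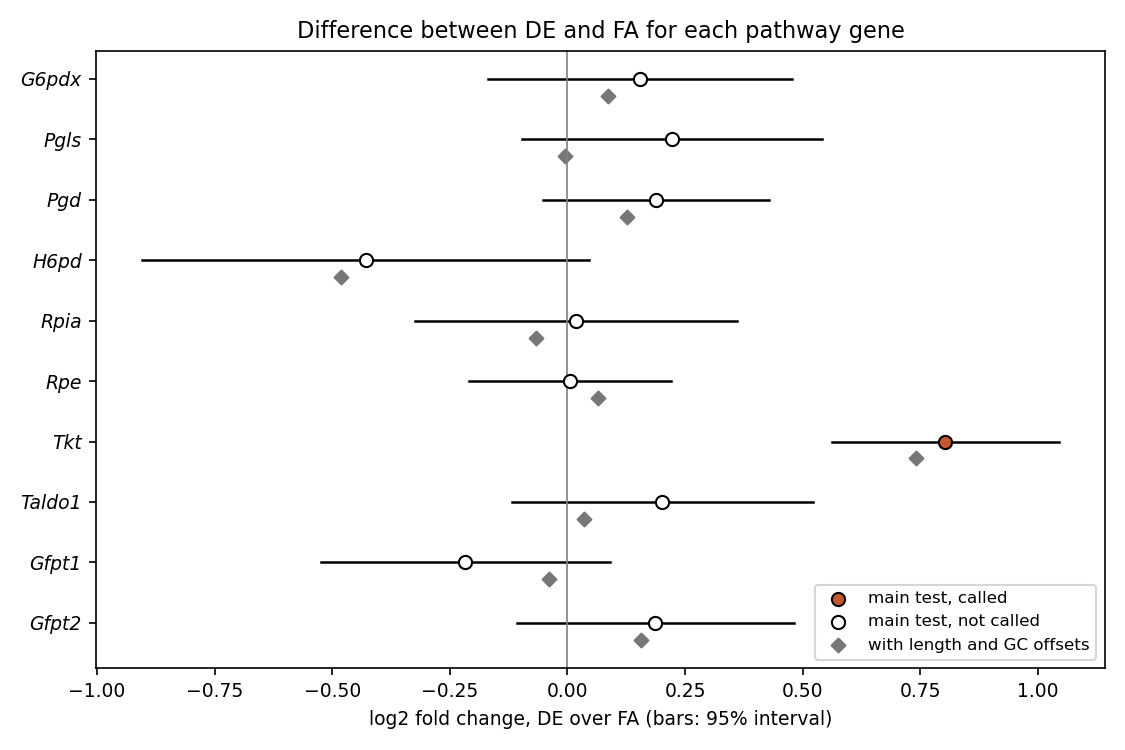
log2 fold change, DE over FA, of the 10 genes with 95% intervals from edgeR's quasi-likelihood fit (circles, filled where called) and the same with offsets for length and GC content of transcripts (grey diamonds). The interval of Tkt, 0.56 to 1.04, is the only one that leaves out 0, and the diamonds of Taldo1, Pgls and Gfpt1 lie near 0.

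The low and high pairs within FA went with the length and GC content of the transcripts. Each library had a trend of level with these properties, fitted over the 92.55% of tested genes for which both were known. Exposure was not a term in that fit. A difference between DE and FA that follows length or GC content is therefore taken out too, and the cause of the trend was not tested. For Pgls, with 1177 exon bases and 57.4% GC, the fitted trend was -0.28, 0.10, -0.25 and -0.03 on the log2 scale in FA replicates 2, 3, 4 and 6, and -0.03, 0.28, 0.31 and -0.10 in DE replicates 1, 3, 5 and 7. For Gfpt1, with 7043 exon bases and 44.4% GC, it was 0.25, -0.14, 0.24 and -0.02 in FA replicates 2, 3, 4 and 6, and 0.12, -0.26, -0.31 and 0.11 in DE replicates 1, 3, 5 and 7. Its sign was opposite to that for Pgls in 7 of the 8 libraries, and both were slightly below 0 in FA replicate 6. The trend differed between the group means, DE minus FA, by 0.23 for Pgls, 0.17 for Taldo1 and -0.17 for Gfpt1, and by 0.06 for Tkt. With the trend removed, the log2 fold changes of Pgls, Taldo1 and Gfpt1 were -0.01, 0.04 and -0.04, and that of Tkt was 0.74 (adjusted p = 0.0012 from edgeR). H6pd, at -0.48, and Gfpt2, at 0.16, moved little under the same offsets. G6pdx went from 0.15 to 0.09 and Pgd from 0.19 to 0.13.

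Per kilobase of exon, the order of the levels over all 8 libraries was Taldo1 (mean 59.9 CPM per kilobase), Pgd (22.1), Tkt (14.9), Gfpt2 (12.6), Pgls (11.2), Gfpt1 (7.68), H6pd (5.20), Rpe (4.25), Rpia (3.46) and G6pdx (2.77). Taldo1 was apart from the rest, since its lowest library, at 45.0, was above the highest of Pgd, at 25.6. The ranges of all the other 8 neighbouring pairs overlapped, although Pgd was above Tkt, and Gfpt1 above H6pd, in 8 of 8 libraries. Tkt was above Gfpt2 in 5 of 8, the 4 DE libraries and 1 FA library. G6pdx, the committed step of the oxidative arm, had the lowest mean per length and was below Rpia in 7 of 8 libraries, the exception being FA replicate 6. The exon length of a gene is the union over its transcripts in GENCODE M21, so that a long rarely used exon lowers the value.

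**Figure D4:**
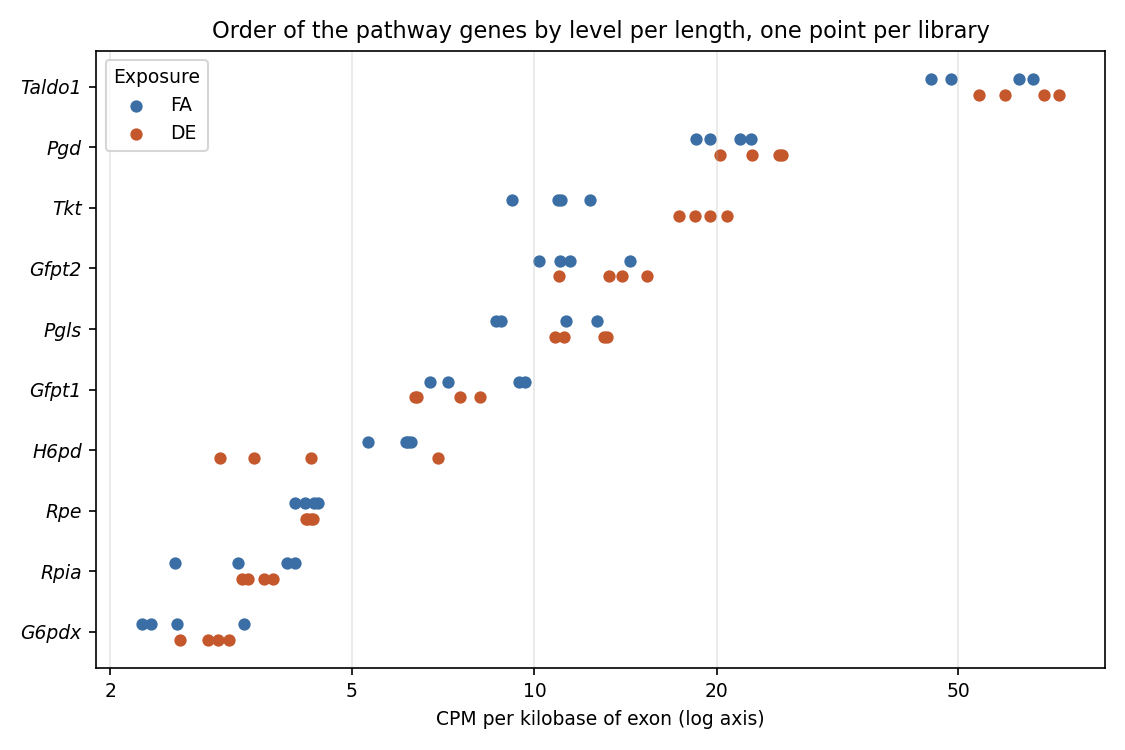
CPM per kilobase of exon (log axis) of the 10 genes, ordered by their mean over 8 libraries, with 1 point per FA (blue) and DE (orange) library. Taldo1 lies apart at 45.0 or more. Tkt lies among Gfpt2 and Pgls in FA and above both in DE, and it is below Pgd in all 8 libraries.

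The genes whose profile over the 8 libraries was most like that of Tkt were Prr5, Bok and Igfbp4. Likeness was the root mean square difference of log2 CPM, each centred on its own mean, over the 13361 genes that averaged 1 CPM or more. It was 0.0632 for Prr5, 0.0836 for Bok and 0.0943 for Igfbp4, against a median of 0.465. Prr5, a subunit of the mTOR complex that phosphorylates Akt, went from 3.77 ± 0.414 to 6.43 ± 0.380 CPM, Bok, a member of the Bcl-2 family, from 9.28 ± 1.42 to 15.7 ± 1.42 CPM, and Igfbp4, a secreted binding protein of insulin-like growth factors, from 95.5 ± 9.24 to 151 ± 17.7 CPM (SD, 4 libraries each). Since likeness to Tkt chose these 3 genes, their difference between DE and FA was fixed by that choice and is only described.

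Around the pentose phosphate pathway, 15 further genes were listed, which feed it, drain it or carry out side steps. Of these, 12 could be tested and 0 were called by edgeR's quasi-likelihood test, while 3 (Rbks, Dera and Prps2) had an unadjusted p under 0.05, a share like the 25.6% over all tested genes. DESeq2 called 1, Dera, higher in DE, and the length and GC offsets called 1, Rbks, lower in DE (-0.70 on the log2 scale, adjusted p = 0.0268 from edgeR). The other 17 alternatives called 0. Dera, the aldolase of deoxyribose phosphate, had the smallest p, with a mean of 9.42 ± 1.29 CPM for FA against 12.3 ± 0.486 CPM for DE (SD, 4 libraries each), or 0.38 on the log2 scale (adjusted p = 0.0877 from edgeR). Prps1 and Prps2, which turn ribose 5-phosphate into the activated ribose of nucleotide synthesis, had log2 fold changes of 0.10 and 0.26, and Gpi1, the isomerase that connects the pathway with glycolysis, had 0.22. Of the 3 that were not tested, G6pd2 and Tktl2 had 0 counts and Prps1l1 had 12 counts over all libraries. The median of the 12 was 0.08.

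In the hexosamine pathway beyond its entry, 1 of 14 genes was called, a share near the 5.80% over all tested genes, and 4 of 14 had an unadjusted p under 0.05, against 25.6%. Uap1l1, a homologue of the enzyme that makes UDP-N-acetylglucosamine, rose from 5.05 ± 0.426 to 7.32 ± 0.911 CPM (SD, 4 libraries each), or by 0.54 on the log2 scale with a standard error of 0.14 (adjusted p = 0.0443 from edgeR). The call was lost in 10 of 19 alternatives, and the highest adjusted p was 0.352 from edgeR. Among these were each fit without an FA replicate and the fits without DE replicates 3 and 5. The call was also lost in the libraries with the number 11 and with that number as a term. There the log2 fold change was 0.37 in both, with adjusted p-values of 0.272 and 0.202 from edgeR. Uap1, the main enzyme of that step, had a mean of 49.7 ± 2.26 CPM for FA against 52.5 ± 5.56 CPM for DE. The enzymes that add and remove O-GlcNAc, Ogt and Oga, were at 225 ± 16.6 and 231 ± 23.3 CPM in FA and at 203 ± 36.7 and 244 ± 52.5 CPM in DE, with adjusted p-values of 0.476 and 0.772 from edgeR. Nans, an enzyme of sialic acid synthesis, was not called (log2 fold change 0.48, adjusted p = 0.0875 from edgeR), but it was called in 3 alternatives, with DESeq2, with the likelihood ratio test and without FA replicate 6. The median log2 fold change of the 14 genes was 0.08, with 8 above 0 and 6 below.

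Among 10 other genes of NADPH supply, 1 was called lower and 1 higher in DE, against 2.22% and 3.58% of all tested genes, and the same 2 had an unadjusted p under 0.05, against 25.6%. A log2 fold change above 0 was found for 2 of the 10, against 50.5% of all tested genes, with 8 below 0, and the median was -0.15. Me1, the cytosolic malic enzyme, was at 58.8, 57.7, 63.7 and 47.2 CPM in FA replicates 2, 3, 4 and 6 and at 34.1, 38.5, 35.1 and 33.5 CPM in DE replicates 1, 3, 5 and 7. The groups were apart, and the level fell by 0.69 on the log2 scale (standard error 0.11, adjusted p = 0.0065 from edgeR). Its call was lost in 1 of 19 alternatives, the test with the 25% difference built in (adjusted p = 0.064). Aldh1l1, a folate enzyme that forms NADPH, rose from 4.34 ± 0.334 to 6.77 ± 0.498 CPM (SD, 4 libraries each, adjusted p = 0.0195 from edgeR). It lost its call in 5 alternatives, including those without FA replicate 2, FA replicate 4 or DE replicate 3. The call of Aldh1l1 was also lost in the libraries with the number 11 (log2 fold change 0.64, adjusted p = 0.0792 from edgeR). Idh1 and Idh2, the isocitrate dehydrogenases that use NADP, had log2 fold changes of -0.10 and -0.06, and Nnt, the mitochondrial transhydrogenase, had -0.18 (adjusted p = 0.212 from edgeR).

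Among 19 enzymes of nucleotide synthesis, which use the ribose made by the pentose phosphate pathway, 3 were called and all 3 were higher in DE, against 5.80% called and 3.58% called higher over all tested genes, and 6 of 19 had an unadjusted p under 0.05, against 25.6%. The list itself was not tested. They were Rrm1, Rrm2 and Tyms, which serve the making of deoxynucleotides, with log2 fold changes of 0.55, 0.68 and 0.48 and adjusted p-values of 0.0156, 0.0169 and 0.0388 from edgeR. Rrm2, the regulated subunit of ribonucleotide reductase, rose from 72.4 ± 14.4 to 116 ± 6.09 CPM (SD, 4 libraries each). None of the 6 enzymes listed for the ring steps of purine synthesis (Ppat, Gart, Pfas, Paics, Adsl and Atic) was called, and their log2 fold changes lay between -0.27 and 0.08. Rrm1 lost its call in 3 alternatives, Rrm2 in 6 and Tyms in 8. In the libraries with the number 11, Rrm2 and Tyms lost it, with adjusted p-values of 0.09 and 0.227 from edgeR. With that number as a term they also lost it, with adjusted p-values of 0.0551 and 0.162 from edgeR. Rrm1 kept its call in both. All 3 calls were lost without FA replicate 2 and also without FA replicate 4. Over all alternatives the highest adjusted p-values from edgeR were 0.206 for Rrm1, 0.132 for Rrm2 and 0.42 for Tyms, each with the 25% difference built in.

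Of 12 genes of the Nrf2 response, a programme that in other cells includes G6pdx, Pgd, Tkt and Taldo1, 11 could be tested and 1 was called, a share near the 5.80% over all tested genes. At an unadjusted p under 0.05 there were 5 of 11 (Hmox1, Gclc, Slc7a11, Gsr and Osgin1), against 25.6% of all tested genes, and 8 of 11 had a log2 fold change above 0, against 50.5%. No test of the list was made. Slc7a11, the cystine transporter, rose from 2.16 ± 0.451 to 3.96 ± 0.295 CPM (SD, 4 libraries each), or by 0.89 on the log2 scale (adjusted p = 0.0193 from edgeR). It lost its call in 5 alternatives, including those without FA replicate 2, FA replicate 3 or DE replicate 3. The call of Slc7a11 was also lost in the libraries with the number 11 (log2 fold change 0.90, adjusted p = 0.0701 from edgeR). Nqo1, the classic target, had a mean of 9.75 ± 0.827 CPM for FA against 10.8 ± 0.993 CPM for DE (adjusted p = 0.454 from edgeR). Hmox1 had a log2 fold change of 0.47 and Gsr, glutathione reductase, which consumes NADPH, 0.33, with adjusted p-values of 0.132 and 0.0752 from edgeR. Gsr was called in 2 alternatives, with DESeq2 (adjusted p = 0.0355) and with library totals alone (adjusted p = 0.0392). The median of the 11 was 0.19 in the main fit, against 0.0037 for all tested genes, and was not computed under the alternatives.

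**Figure D5:**
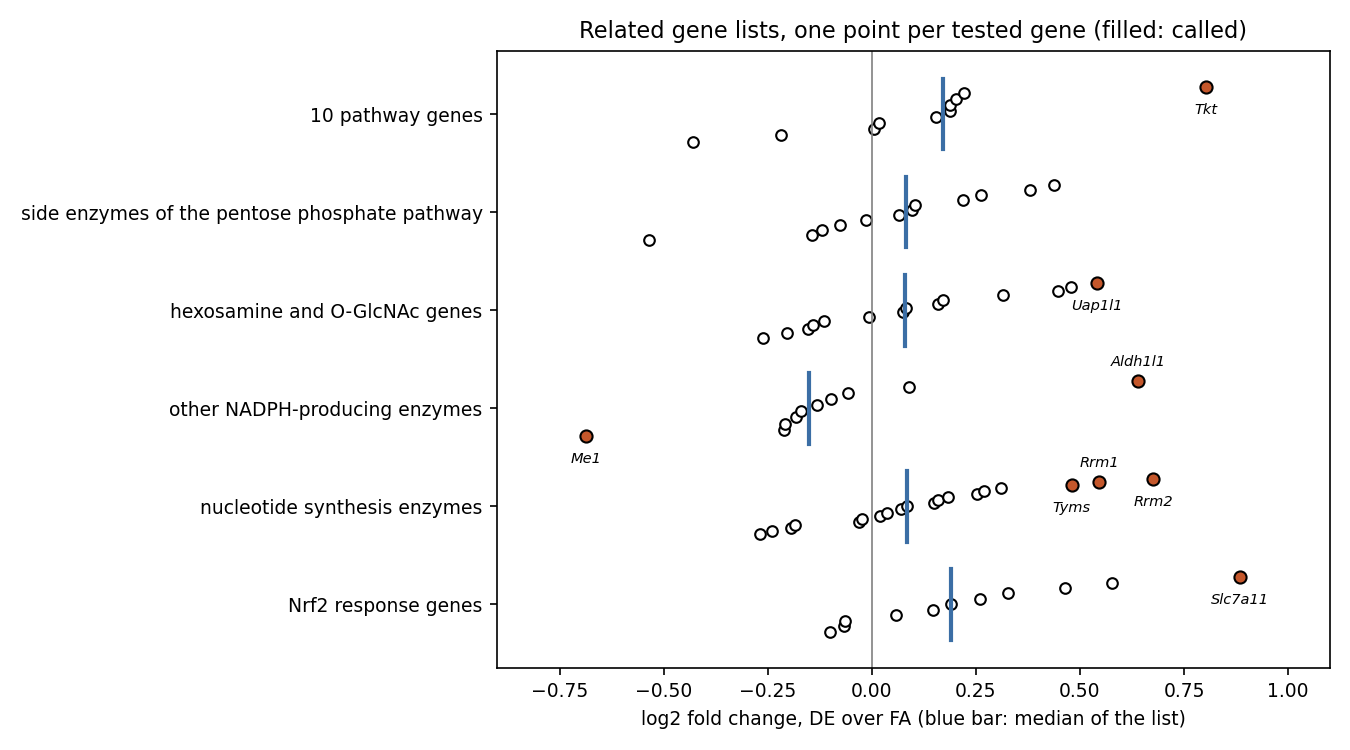
log2 fold change, DE over FA, of the tested genes of the 10 pathway genes and 5 related lists, with 1 point per gene, the median of each list as a blue bar and called genes filled and named. In the lists beside the 10 genes, 7 genes were called, 6 higher and Me1 lower.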

How the data were processed

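The authors mapped the reads to mm10 with Tophat and made fragment counts per Entrez gene with featureCounts. Duplicates were marked but kept, so that counting error understates the true error. The deposited values are raw counts without normalization. The counting annotation, its strand setting and its handling of multi-mapping reads are not given in the sources used here.

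Entrez IDs were matched to symbols and positions in RefSeq (GRCm38.p6), 25275 of 27179. Counts were filtered with filterByExpr (minimum count 10), then TMM-scaled, and exposure was tested with the quasi-likelihood functions of edgeR 4.0.16 (R 4.3.3) without covariates. P-values were adjusted by Benjamini-Hochberg over the 14966 tested genes, and genes were called at 0.05 and a fold of 1.25, the thresholds in the methods. The methods give a smaller n per group without naming the libraries, so all 8 were used. Intervals of 95% come from the standard error and its degrees of freedom. The alternatives were DESeq2 1.42.0, limma-voom (limma 3.58.1), the likelihood ratio test, the 25% difference built into the test (glmTreat), other scalings, no filter, the name prefix, offsets from splines (5 degrees of freedom) on transcript length and GC content (GENCODE M21), and each library left out. The code was tested on simulated data. The closest pair of libraries within a group, FA replicates 2 and 4, still had a chi-square per gene of 5.37, far above sampling noise. The named genes were the 10 members, each called gene of the lists (or the one with the smallest p), and the 3 genes most like each called member. Of the listed genes, 1 is not reported here and is left out of the counts of its list. The members and lists were chosen with earlier results of these data known.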

Additional observations from a re-analysis of the deposited data

Results flagged for a closer look

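The H6pd level in FA replicate 6, 25.72 CPM, lay below the other FA libraries (29.8, 29.92 and 30.3 CPM) by more than Dixon's 95% limit for 4 values, with a gap of 0.889 of the group's range. It was the 1 case among 42 groups tested over the named genes, and chance alone flags about 1 in 20. Without FA replicate 6 the log2 fold change of H6pd was -0.48, with an adjusted p of 0.233 from edgeR.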

How the results depend on the processing

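Of 399 fits of 21 named genes over 19 alternatives, 344 kept direction and call, 43 lost the call, 2 gained it (H6pd without DE replicate 1 and Dera with DESeq2) and 10 turned direction. Pgls went from 0.22 to -0.0052 under the length and GC offsets, which take out its trend of 0.23. The other turns were in Rpia and Rpe, both near 0, with Rpia at -0.067 under the offsets and at values from -0.0996 to -0.00069 without FA replicate 4, FA replicate 6, DE replicate 3 or DE replicate 7, and Rpe at values from -0.0198 to -0.0026 without FA replicate 3, FA replicate 4, DE replicate 1 or DE replicate 7. With each library left out, Rpia ran from -0.0996 to 0.0979 and Rpe from -0.0198 to 0.0234. In the same fits G6pdx ran from 0.085 to 0.286, Pgls from 0.139 to 0.333 and Pgd from 0.132 to 0.252. Taldo1 ran from 0.110 to 0.295, Gfpt1 from -0.305 to -0.141 and Gfpt2 from 0.110 to 0.296. The cause of the turns in Rpia and Rpe was not tested. Over all tested genes, 868 calls became 1620 with DESeq2, 1603 with the likelihood ratio test, 1543 with the offsets, 448 with the name prefix as a term, 260 with the number 11 only and 114 with the 25% difference built in, and 237 (without FA replicate 4) to 1168 (without DE replicate 1) with each library left out. The number of called genes among the 10 was 1, or 2 without DE replicate 1, so that leaving out single libraries gave 1 to 2. The 7 calls in the related lists became 10 with DESeq2, 9 with library totals alone, 8 with the likelihood ratio test and 8 with the offsets, 0 with the 25% difference built in, 2 with the number 11 only and 4 with the name prefix as a term, and 1 (without FA replicate 2) to 7 with each library left out, with 2 without FA replicate 4 or DE replicate 3 and 4 without FA replicate 3. The fits with the number 11 only hold 6 of the 8 libraries. No paired analysis was made, because the sample labels do not pair FA libraries with DE libraries.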
